A study of Homo sapiens with 6 samples.

Results

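The enzymes of serine synthesis and of folate-bound one-carbon metabolism were compared between libraries labelled shSTN1 and libraries labelled control. The 9 genes were chosen by name, as the rows of the count table whose symbol is PHGDH, PSAT1, PSPH, SHMT1, SHMT2, MTHFD1, MTHFD1L, MTHFD2 or ALDH1L2, out of 60623 genes. Each symbol matched exactly 1 row, and all 9 passed the filter on low counts. Total RNA was sequenced in 6 bulk libraries labelled PANC-1, an established line from a human pancreatic ductal carcinoma. Of these, 3 carry the sample name Sh4 and the label shSTN1, a hairpin against STN1, which encodes a subunit of the telomere-maintaining CST complex. The other 3, the control libraries, carry the name scramble and a control hairpin, so that both groups carry one. All cells were grown in DMEM with serum, and neither clones nor the time after the hairpin was introduced are stated in the labels. The genotype fields of 2 of the shSTN1 libraries read STN2 and STN3 knockdown, and the titles were used for grouping. The libraries are called biological replicates without mention of separate cultures, so the p-values speak only to the variation among these 6 libraries, possibly technical.

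Cells make serine from a glycolytic intermediate in successive steps run by PHGDH, PSAT1 and PSPH. Serine then gives a carbon unit to tetrahydrofolate, a reaction catalysed by SHMT1 in the cytosol and SHMT2 in mitochondria, and the unit is oxidised to formate or formyl-folate by the MTHFD enzymes of each compartment. In many proliferating cells the mitochondrial enzymes export formate, which the cytosolic enzyme MTHFD1 uses for purine and thymidylate synthesis. PHGDH, PSAT1, SHMT2, MTHFD2 and ALDH1L2 are known targets of the stress-response transcription factor ATF4.

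The libraries held 17357223 to 23336942 counted reads. STN1 had 303, 306 and 275 reads in the shSTN1-labelled libraries, against 387, 346 and 278 in control. Its mean was 14.8 ± 0.793 CPM (library-size-scaled counts, using TMM factors) with the shSTN1 label and 16.4 ± 1.95 CPM in control (SD, n = 3 each), and it did not pass the test (log2 fold change -0.15, edgeR adjusted p = 0.253). With total counts as the only scaling it did (-0.35, edgeR adjusted p = 0.00909), but the median of all genes then moved to -0.22 from -0.03. Since the level of the targeted mRNA did not separate the labels under the main scaling, directions are given for libraries by their label. The groups also differed in cell identity markers. CDKN2A, which PANC-1 is described as lacking, had 0 reads over the shSTN1-labelled libraries and 11753 over control. Of 10 markers of embryonic kidney lines, a list that includes CDKN2A, 9 were lower and PAX2 was higher in the shSTN1-labelled libraries. Their summed level was 128 to 133 CPM there and 1027 to 1094 CPM in control, with SALL1, HMX1 and EYA4 also at 0 reads in the shSTN1-labelled libraries. IRS4 had 3 reads over the shSTN1-labelled libraries and 20505 over control, and NEFM and NEFL were lower as well. All 10 carcinoma line markers were higher, KRT8, KRT18, KRT19 and S100A6 among them. Their sums were 9663 to 9758 CPM in the shSTN1-labelled libraries, against 1851 to 1971 CPM in control. Over all genes tested, 38.5% were lower and 35.6% higher. Both marker lists were chosen with earlier results of these data known. The part of these marker differences in the enzyme values was not tested. The hairpin and a difference in the cells themselves cannot be told apart for any result given here.

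Of the 9 enzymes, 7 fell, 1 rose and 1 did not pass the test in the shSTN1-labelled libraries (edgeR quasi-likelihood test, adjusted p under 0.05). Over all 17451 genes tested, 74.1% passed, 38.5% lower and 35.6% higher, so a count of 8 in 9 past the threshold lies near the background, and the enzymes are described by direction and size. With total counts as the only scaling, 4940 genes were higher and 8060 lower, in place of 6209 higher and 6720 lower, and the median log2 fold change of all genes moved to -0.22. The enzymes had a median log2 fold change of -1.01, beside -0.03 for all genes tested. At least 2-fold lower levels were found for 5 of the 9, where 19% of all genes tested were called lower by that much. PSAT1 and SHMT2 lie at that limit, with log2 fold changes of -1.01 each. Without shSTN1 replicate 2 both were at -0.98 and the count was 3, as it was with only protein-coding genes, and with total counts as the only scaling it was 6. The groups did not overlap for 8 of the 9, as for 75.6% of all genes tested. In bulk RNA, fewer cells with an enzyme and less of its RNA per cell cannot be told apart.

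**Figure D1:**
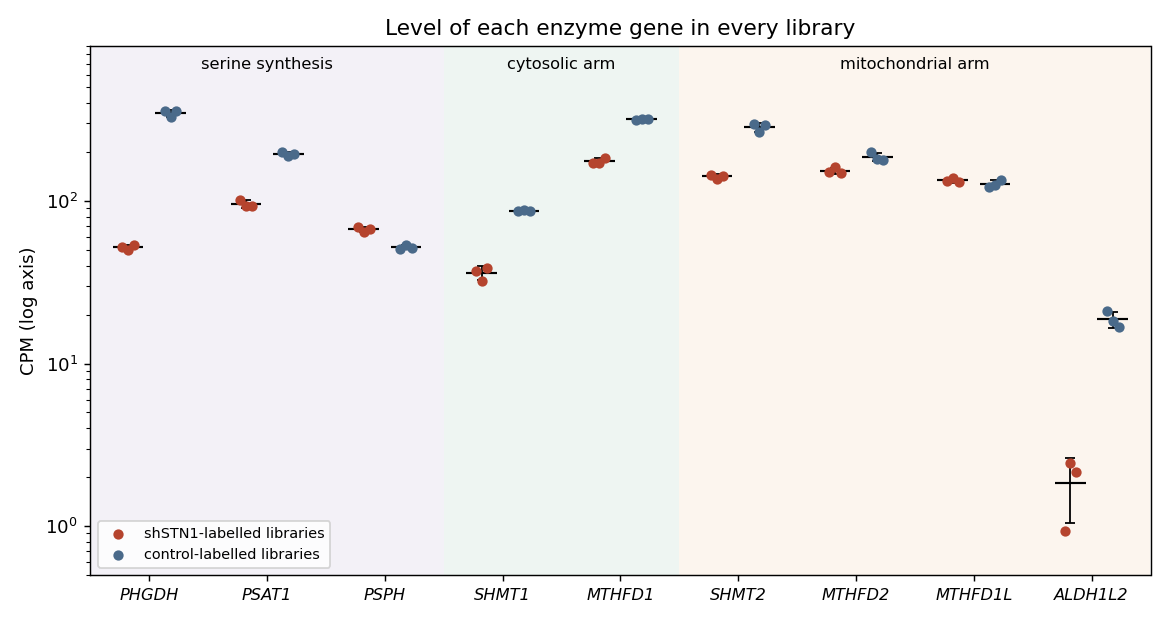
CPM of the 9 enzyme genes (log axis) in the 3 shSTN1-labelled and the 3 control libraries, with the mean and SD of each group. PHGDH and ALDH1L2 show the widest gaps, at 14.9% and 9.81% of control, PSPH is the one gene whose shSTN1-labelled points all lie above control, and the MTHFD1L points overlap.

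In serine synthesis, the entry step fell most. Gene positions are those of GENCODE 29 on GRCh38. PHGDH (ENSG00000092621.12) lies on the plus strand at chr1:119648411-119744226, PSAT1 (ENSG00000135069.14) on the plus strand at chr9:78297143-78330093 and PSPH (ENSG00000146733.14) on the minus strand at chr7:56011051-56051604. PHGDH, which oxidises phosphoglycerate and commits it to serine, had 1067, 1088 and 942 reads in the shSTN1-labelled libraries, against 7424, 7300 and 6608 in control. These were 52.1, 49.8 and 53.5 CPM with the shSTN1 label, against 357, 327 and 358 CPM in control, with no overlap and a spread within groups far smaller than the gap. Its mean fell to 51.8 ± 1.82 CPM in the shSTN1-labelled libraries, against 347 ± 17.9 CPM in control (SD, n = 3 each), which is 14.9% of the control mean. This gave a log2 fold change of -2.75 (SE of the difference of mean log2 CPM 0.0526, edgeR adjusted p = 2.71e-26), and 7.31% of all genes tested lay lower. PHGDH gave 6.04% ± 0.168 of the reads of the 9 enzymes in the shSTN1-labelled libraries and 21.5% ± 0.533 in control.

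PSAT1, the transaminase of the next step, fell by a smaller factor. PSAT1 had 102, 93.0 and 93.6 CPM with the shSTN1 label and 201, 189 and 194 CPM in control, a log2 fold change of -1.01 (SE 0.0509, edgeR adjusted p = 2.98e-15). PSPH, the phosphatase that releases free serine, rose. Its libraries stood at 69.2, 64.1 and 67.2 CPM with the shSTN1 label and at 50.9, 53.9 and 51.4 CPM in control, a log2 fold change of 0.36 (SE 0.0407, edgeR adjusted p = 1.02e-04). The 3 steps of the pathway differed in direction and size, at 14.9%, 49.5% and 128% of control in the order PHGDH, PSAT1, PSPH. With total counts as the only scaling, PSPH did not pass (0.16, adjusted p = 0.0611), although it then lay above the median of all genes. PSPHP1, annotated as a pseudogene of PSPH on the same chromosome, had 234, 179 and 150 reads in the shSTN1-labelled libraries against 24, 28 and 43 in control (log2 fold change 2.59, edgeR adjusted p = 2.21e-12), and how reads shared with PSPH were assigned is not given in the sources used here, so the PSPH value is uncertain to that extent.

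The promoter windows of PHGDH and PSAT1 are shown because these genes encode the enzymes of adjoining steps and both fell, to 14.9% and 49.5% of control. The windows are from RefSeq on GRCh38.p14, 250 bases before to 50 after an annotated start, on the plus strand at chr1:119711684-119711983 and chr9:78296875-78297174. Capitals mark the CCAAT box, found on either strand as CCAAT or ATTGG, and other motifs searched are not marked here.
PHGDH: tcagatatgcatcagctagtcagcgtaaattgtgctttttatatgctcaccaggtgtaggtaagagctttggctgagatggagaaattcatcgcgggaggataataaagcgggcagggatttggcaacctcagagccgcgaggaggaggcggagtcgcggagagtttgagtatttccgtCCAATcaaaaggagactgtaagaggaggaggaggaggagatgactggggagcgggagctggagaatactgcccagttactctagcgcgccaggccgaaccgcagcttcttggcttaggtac
PSAT1: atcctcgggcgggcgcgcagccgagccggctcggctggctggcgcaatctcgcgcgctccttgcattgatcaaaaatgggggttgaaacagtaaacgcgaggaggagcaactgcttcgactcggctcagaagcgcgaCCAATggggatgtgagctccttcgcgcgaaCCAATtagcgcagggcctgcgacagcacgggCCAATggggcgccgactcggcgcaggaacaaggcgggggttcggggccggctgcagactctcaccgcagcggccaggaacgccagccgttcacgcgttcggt
PHGDH holds 1 CCAAT box, at -71 from the start, and PSAT1 holds 3, at -113, -83 and -52. All 6 enzymes with a window in the table hold at least 1 CCAAT box. Counted by window, 8 of their 9 windows hold it, 3 of them overlapping windows of MTHFD1L, and 34.6% of the 35116 windows do. The C/EBP-ATF response element bound by ATF4, searched as TGATGNAA or TTNCATCA, and the E-box CACGTG bound by MYC, were found in neither PHGDH nor PSAT1. These elements occur in 3.62% and 7.26% of all windows. A match is only a run of letters, and factors can bind outside the window.

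Both cytosolic enzymes fell. SHMT1 (ENSG00000176974.20) lies on the minus strand at chr17:18327860-18363563 and MTHFD1 (ENSG00000100714.17) on the plus strand at chr14:64388031-64463457. SHMT1, which in the cytosol moves the carbon unit of serine onto folate, had 37.3, 32.2 and 38.8 CPM in the shSTN1-labelled libraries, against 87.3, 88.0 and 86.4 CPM in control. Its mean was 36.1 ± 3.46 CPM with the shSTN1 label and 87.2 ± 0.773 CPM in control (SD, n = 3 each), or 41.4% of control (log2 fold change -1.27, SE 0.0820, edgeR adjusted p = 1.90e-15). MTHFD1, a trifunctional enzyme that interconverts the folate-bound units and ligates formate to folate, had 171, 171 and 184 CPM with the shSTN1 label and 315, 319 and 319 CPM in control. This was 55.3% of control (log2 fold change -0.86, SE 0.0346, edgeR adjusted p = 4.46e-14). Groups were apart for both genes. On the opposite strand, SHMT1 shares 196 exonic bases with SMCR8 and MTHFD1 shares 178 with ZBTB25 in GENCODE 29. The fold changes of these partners were -0.07 and -0.13 on the log2 scale and did not pass, while the strand setting of the counting is not given in the sources used here.

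The 4 mitochondrial enzymes ranged from the largest fall of the 9 to a difference that did not pass the test. SHMT2 (ENSG00000182199.11) lies on the plus strand at chr12:57229327-57234935, MTHFD2 (ENSG00000065911.12) on the plus strand at chr2:74198562-74217565, and MTHFD1L (ENSG00000120254.15) on the plus strand at chr6:150865549-151101887. SHMT2, the mitochondrial counterpart of SHMT1, had 145, 137 and 143 CPM with the shSTN1 label and 299, 264 and 293 CPM in control, or 49.7% of control (log2 fold change -1.01, SE 0.0616, edgeR adjusted p = 2.45e-15). MTHFD2, the dehydrogenase and cyclohydrolase that oxidises the unit in mitochondria, stood at 151, 161 and 149 CPM in the shSTN1-labelled libraries and at 200, 181 and 180 CPM in control. It fell to 82.2% of control (log2 fold change -0.28, SE 0.0595, edgeR adjusted p = 2.59e-04), with the groups close but not overlapping. MTHFD1L, the mitochondrial synthetase that releases formate, had 132, 139 and 131 CPM with the shSTN1 label and 122, 126 and 135 CPM in control. Its ranges overlapped, and it did not pass the test (log2 fold change 0.07, SE 0.0491, edgeR adjusted p = 0.337). The limma-voom 95% interval of -0.06 to 0.21 leaves room for a small difference in either direction, and the value was -0.13 with total counts as the only scaling.

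ALDH1L2, which in mitochondria oxidises formyl-folate to carbon dioxide while making NADPH, was the least abundant of the 9 and fell most. Its gene (ENSG00000136010.14) lies on the minus strand at chr12:105019784-105084577. It had 19, 53 and 38 reads in the shSTN1-labelled libraries, against 438, 410 and 309 in control. In CPM these were 0.928, 2.43 and 2.16 with the shSTN1 label, against 21.1, 18.3 and 16.7 in control, a log2 fold change of -3.35 (SE 0.420, edgeR adjusted p = 1.12e-16). The spread within the shSTN1-labelled group was wide for so few reads, with replicate 1 lowest, yet every value lay below every control value. Over left-out libraries the log2 fold change ran from -3.63 to -3.02. ALDH1L2 shares 145 exonic bases with C12orf45 on the opposite strand, which had 987 reads over the shSTN1-labelled libraries and 1341 over control, so some of the few ALDH1L2 reads could belong to that gene. Its cytosolic counterpart ALDH1L1 had 8 reads over the 3 shSTN1-labelled libraries and 0 over the 3 control libraries and was not tested.

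**Figure D2:**
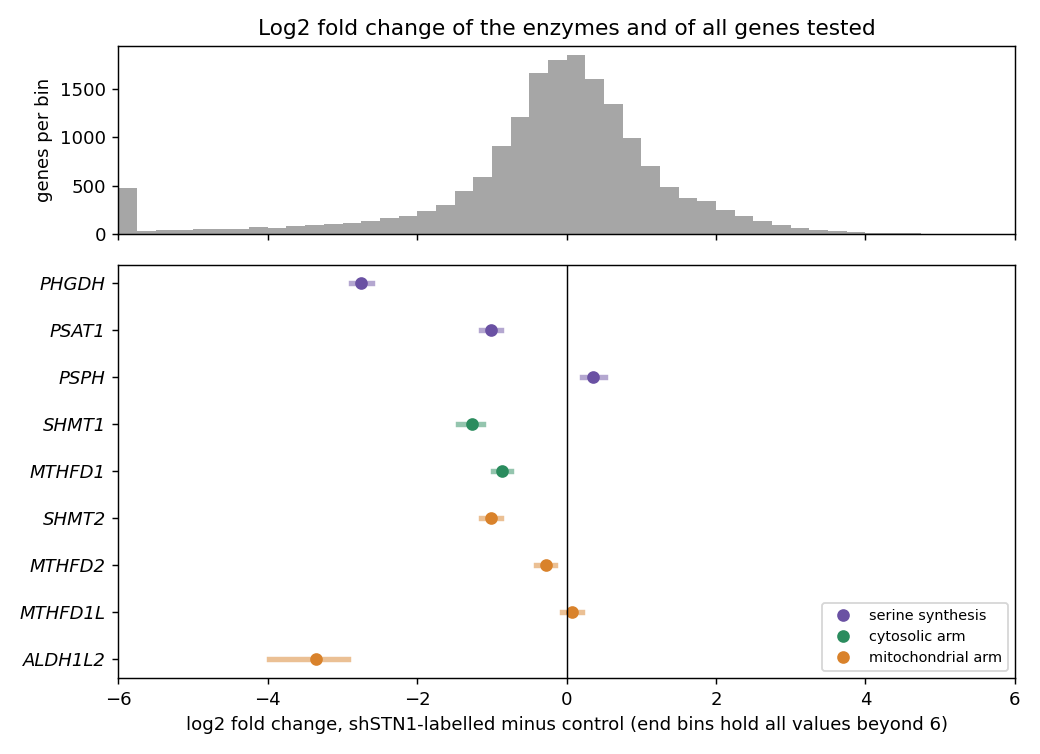
Log2 fold change (shSTN1-labelled minus control) of the 9 enzymes with limma-voom 95% intervals as bars (lower panel), above which the histogram counts all 17451 genes tested in bins of the same scale (upper panel). The outermost histogram bins also hold all genes beyond the axis. The enzymes spread from -3.35 for ALDH1L2 to 0.36 for PSPH, and the interval of MTHFD1L includes 0.

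Set against each other within a library, where scaling cancels, 3 pairs of a mitochondrial and a cytosolic enzyme had higher ratios in the shSTN1-labelled libraries. ALDH1L2, which fell, is in none of these pairs. The log2 ratio of SHMT2 to SHMT1 was 1.95, 2.09 and 1.88 in the shSTN1-labelled libraries and 1.78, 1.58 and 1.76 in control, so that the mean ratio was 3.93 with the shSTN1 label against 3.26 in control. For MTHFD2 to MTHFD1 the log2 ratio was -0.19, -0.09 and -0.30 in the shSTN1-labelled libraries and -0.66, -0.82 and -0.82 in control, a mean ratio of 0.876 with the shSTN1 label against 0.588 in control. For MTHFD1L to MTHFD1 it was -0.37, -0.30 and -0.49 in the shSTN1-labelled libraries and -1.36, -1.34 and -1.24 in control, a mean ratio of 0.764 with the shSTN1 label against 0.402 in control. None of the 3 ratios overlapped between groups, with differences of 0.27 (SE 0.0868), 0.57 (SE 0.0817) and 0.93 (SE 0.0661) on the log2 scale. As single genes, 75.6% of all genes tested did not overlap. The ratios of MTHFD2 and MTHFD1L share MTHFD1 (log2 fold change -0.86) as denominator, so they are not independent of each other. MTHFD1L itself did not pass the test (0.07). The two-sided exact permutation test gave p = 0.1 for each ratio and 0.1 after adjustment over the 3 ratios. This is the smallest p that 3 libraries against 3 can give, so this design cannot place the ratios below 0.05.

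For the whole arms the difference depended on ALDH1L2. The mean log2 CPM of the 4 mitochondrial genes minus that of the 2 cytosolic genes was -0.95, -0.49 and -0.75 in the shSTN1-labelled libraries and -0.57, -0.71 and -0.67 in control. The groups overlapped, and the difference of -0.08 (SE 0.137) was within the spread. It was 0.02 without shSTN1 replicate 1, the library with 19 ALDH1L2 reads. Without ALDH1L2 the same score was 0.83, 0.97 and 0.74 in the shSTN1-labelled libraries and 0.23, 0.12 and 0.21 in control. The difference was 0.66 (SE 0.0750) with no overlap, where 75.6% of all genes tested did not overlap as single genes. Leaving out the gene that fell most raises the score difference by construction. The genes left are those of the 3 ratios, so this score adds nothing independent of them. Summed CPM, in which the rare ALDH1L2 weighs little, was 432 ± 7.44 with the shSTN1 label against 619 ± 27.5 in control for the mitochondrial arm (69.7% of control; SD, n = 3 each). For the cytosolic arm it was 212 ± 9.90 with the shSTN1 label against 405 ± 2.34 in control (52.3%). The sum of the 3 serine synthesis genes was 215 ± 8.36 CPM with the shSTN1 label and 594 ± 21.3 CPM in control (36.2%). These sums and scores are descriptions, with no test. Transcripts of the mitochondrial genome took 7.84% to 8.28% of the reads of the shSTN1-labelled libraries and 4.93% to 5.64% of control reads. A relation between this share and the enzyme ratios was not tested.

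**Figure D3:**
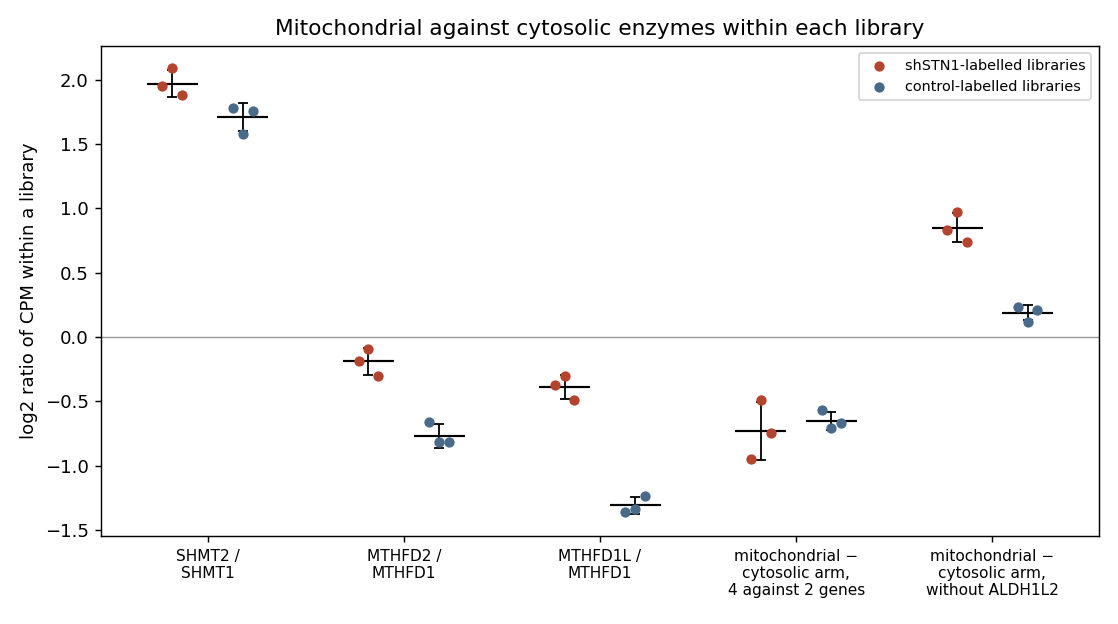
Log2 ratio of CPM within each library for 3 pairs of mitochondrial and cytosolic enzymes, and the difference of the mean log2 CPM of the arms with and without ALDH1L2, as points with mean and SD for the shSTN1-labelled and control groups. The 3 pair ratios and the score without ALDH1L2 lie higher in the shSTN1-labelled libraries, by 0.27 to 0.93, while the score over all 4 mitochondrial genes overlaps. The score without ALDH1L2 is built from the same genes as the ratios.

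The promoter windows of MTHFD1L and MTHFD1 are shown because this pair had the largest shift of the 3 ratios. Both are on the plus strand of GRCh38.p14, at chr6:150866236-150866535 (1 of 4 RefSeq windows of the gene) and chr14:64388103-64388402. Capitals mark the CCAAT box, the E-box and, in MTHFD1L, the C/EBP-ATF response element.
MTHFD1L: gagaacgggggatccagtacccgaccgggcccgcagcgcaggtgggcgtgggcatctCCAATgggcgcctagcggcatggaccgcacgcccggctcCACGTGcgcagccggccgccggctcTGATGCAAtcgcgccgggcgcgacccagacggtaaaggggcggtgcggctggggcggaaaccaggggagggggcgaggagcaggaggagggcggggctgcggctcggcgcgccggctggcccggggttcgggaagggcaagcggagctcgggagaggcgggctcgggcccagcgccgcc
MTHFD1: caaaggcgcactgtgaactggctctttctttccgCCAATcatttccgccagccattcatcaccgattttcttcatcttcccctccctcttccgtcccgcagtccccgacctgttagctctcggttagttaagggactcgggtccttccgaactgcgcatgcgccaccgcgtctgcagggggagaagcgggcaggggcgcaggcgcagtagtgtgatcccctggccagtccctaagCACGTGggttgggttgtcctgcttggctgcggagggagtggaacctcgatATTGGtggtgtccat
In the window shown, MTHFD1L holds the C/EBP-ATF response element at -129, the E-box at -154 and a CCAAT box at -193. From the starts of the windows that overlap it, the same element lies at -90 and 25, and the E-box at -115 and -1. Of the 6 enzymes with a window, MTHFD1L alone held the C/EBP-ATF element, in 3 of its 4 windows, which overlap one another. MTHFD1 holds the E-box at -15 and a CCAAT box at -216 and 36. The window of MTHFD2 holds a pair of CCAAT boxes and neither of the other elements, and so does that of SHMT1. A further 4 motifs were searched on both strands: the GC box GGGCGG (45% of all windows) in PSAT1, SHMT1 and MTHFD1L, the NRF1 motif GCATGCGC (3.05%) in MTHFD1, TATAAA (11.5%) in PHGDH, and the E2F motif TTTCGCGC (0.515%) in no enzyme.

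Per kilobase of the principal transcript, which allows levels of different genes to be compared, the order of the enzymes differed between groups. In the shSTN1-labelled libraries MTHFD1 and SHMT2 led at 56.0 ± 2.31 and 55.9 ± 1.59 CPM per kb, with overlapping ranges. PSAT1 (44.0), MTHFD1L (37.2), MTHFD2 (34.5), PSPH (30.7), PHGDH (range 19.3 to 20.7), SHMT1 (14.7) and ALDH1L2 (0.243 CPM per kb) followed without overlap between neighbours. In control PHGDH led at 134 ± 6.94 CPM per kb, followed by SHMT2 at 112 ± 7.54, MTHFD1 at 101 ± 0.750, PSAT1 at 88.9 ± 2.64 and MTHFD2 at 42.0 ± 2.46 CPM per kb. MTHFD1L and SHMT1 came next at 35.4 CPM per kb each, with overlapping ranges, then PSPH at 23.9 and ALDH1L2 at 2.48 CPM per kb. PHGDH thus ranked 7 of 9 in the shSTN1-labelled libraries and 1 of 9 in control. The order depended on the length used. Per kilobase of all annotated exons, a basis added after the data were seen, PSAT1 led in both groups, at 44.0 CPM per kb with the shSTN1 label against 88.9 in control, and PHGDH ranked 7 in the shSTN1-labelled libraries against 4 in control, where its range overlapped that of MTHFD2 at rank 3.

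The other genes of the pathway are given by list, beside the 74.1% of all genes that passed and their median log2 fold change of -0.03. De novo purine synthesis, which takes formyl units from folate, had 12 of 13 genes lower and 0 higher, with a median of -0.58. PAICS stood at 213 ± 9.47 CPM with the shSTN1 label and 488 ± 21.8 CPM in control (log2 fold change -1.19, edgeR adjusted p = 1.40e-17), PFAS had a log2 fold change of -0.97, PPAT, the committing amidotransferase, -0.91, and IMPDH2, of the guanine branch, -0.82. The remaining gene, ADSS1, did not pass at 0.20, and it was called higher without shSTN1 replicate 2. The glycine cleavage system, which takes carbon units from glycine in mitochondria, had all 3 tested genes lower. Its decarboxylase gene GLDC stood at 18.1 ± 3.41 CPM with the shSTN1 label and 62.7 ± 4.27 CPM in control (-1.79, edgeR adjusted p = 1.93e-16), with GCSH at -1.33 and DLD at -0.58. GLDC lies on chromosome 9 among 8 tested genes within 1 Mb, of which 7 were lower and 0 higher, with a median of -0.98. Of all genes tested, 38.5% were lower.

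Folate handling genes were divided, with 5 higher and 5 lower of 13 tested and a median of 0.08, where 35.6% of all genes tested were higher and 38.5% lower. The folate carrier gene SLC19A1 fell to 61.5 ± 2.06 CPM in the shSTN1-labelled libraries, against 94.8 ± 7.10 CPM in control (-0.62, edgeR adjusted p = 6.55e-09). TYMS, which makes thymidylate, rose to 141 ± 2.91 CPM in the shSTN1-labelled libraries, against 97.4 ± 4.19 CPM in control (0.53, edgeR adjusted p = 1.65e-08), and MTHFS rose (1.40). With total counts as the only scaling 3 were higher, and without control replicate 1 only 3 were lower. In the methionine cycle and transsulfuration, 3 of 9 tested genes were higher and 4 lower (median 0.16). MAT2A, which makes the methyl donor, rose to 496 ± 15.3 CPM in the shSTN1-labelled libraries, against 259 ± 7.66 CPM in control (0.94). The genes that turn homocysteine to cysteine, CBS (-1.70) and CTH (-2.30), fell, as did the methionine synthase gene MTR (-1.18).

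Serine transport and use had 7 of 12 tested genes lower and 3 higher (median -0.50). For this and the next lists, the shares over all genes tested were 38.5% lower and 35.6% higher. The mitochondrial serine carrier gene SFXN1 fell to 117 ± 2.65 CPM in the shSTN1-labelled libraries, against 226 ± 14.2 CPM in control (-0.95, edgeR adjusted p = 1.09e-14), SFXN3 was at -1.11 and the neutral amino acid transporter gene SLC1A5 at -1.06. SPTLC1, which uses serine for sphingolipids, rose (0.78). The ATF4 pathway list, 4 of 12 lower and 3 higher with a median of -0.07, had members in both directions. ATF4 itself fell to 286 ± 12.4 CPM in the shSTN1-labelled libraries, against 789 ± 69.9 CPM in control (-1.46, edgeR adjusted p = 3.33e-19), with SESN2 at -2.20 and ATF3 at -2.40, whereas ATF5 rose (2.46). Of the targets of ATF4, the asparagine synthetase gene ASNS (-0.20) and the cystine transporter gene SLC7A11 (0.00) did not pass. Without shSTN1 replicate 2, 5 genes of this list were higher. Among other regulators of the pathway 4 of 6 were lower and 1 higher (median -0.59): MYC (-1.32), the demethylase gene KDM4C (-1.37) and the amino acid sensor kinase gene EIF2AK4 (-0.72) fell, and NFE2L2, which encodes NRF2, rose (0.85). KDM4C is 1 of the 7 lower genes within 1 Mb of GLDC.

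**Figure D4:**
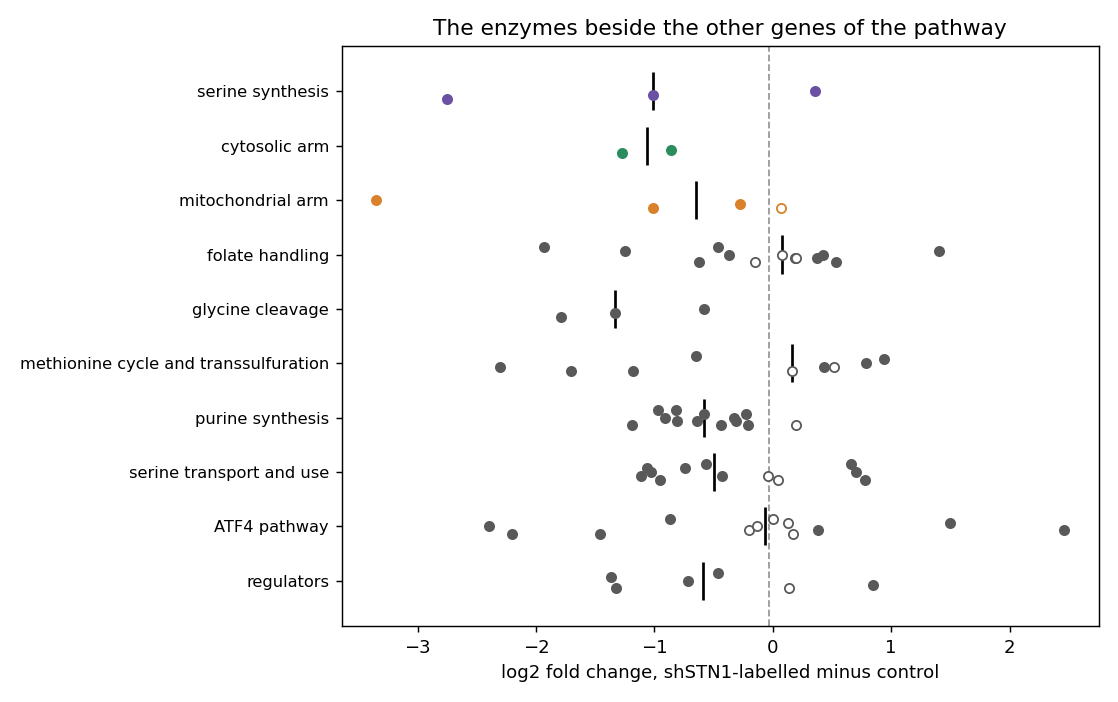
Log2 fold change (shSTN1-labelled minus control) of each tested gene in the 3 classes of enzymes and in the other lists of the pathway, filled where the adjusted p is under 0.05, with a bar at each median and a dashed line at the median of all genes, -0.03. Purine synthesis genes called changed lie below 0 throughout, while folate handling and ATF4 pathway genes spread to both sides.

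Genes near each enzyme gene were compared with it. Of all genes tested, 35.6% were higher and 38.5% lower. All 11 tested genes within 1 Mb of PHGDH had higher log2 fold changes than PHGDH, with a median of 0.34. They went both ways, with 6 called higher and 4 lower, and ran from -2.1 to 2.36. Since only 7.31% of all genes tested lay below PHGDH, 11 neighbours are too few to set it apart from its region. Near ALDH1L2 the 14 neighbours had a median of 0.22, with 7 called higher and 4 lower. Of the 14, 1 had a lower log2 fold change than ALDH1L2. The neighbours of SHMT2 (55 genes), SHMT1 (37), MTHFD1 (20) and MTHFD2 (41) had medians of -0.01, -0.20, -0.17 and -0.10, and those of MTHFD1L (13) -0.29. Near PSPH on chromosome 7, 12 of 13 tested genes were higher and 0 lower, with a median of 0.67, above the value of PSPH. The pseudogene PSPHP1 is 1 of the 12 higher genes. Near PSAT1 on chromosome 9 all 3 tested genes were lower, with a median of -0.82.

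**Figure D5:**
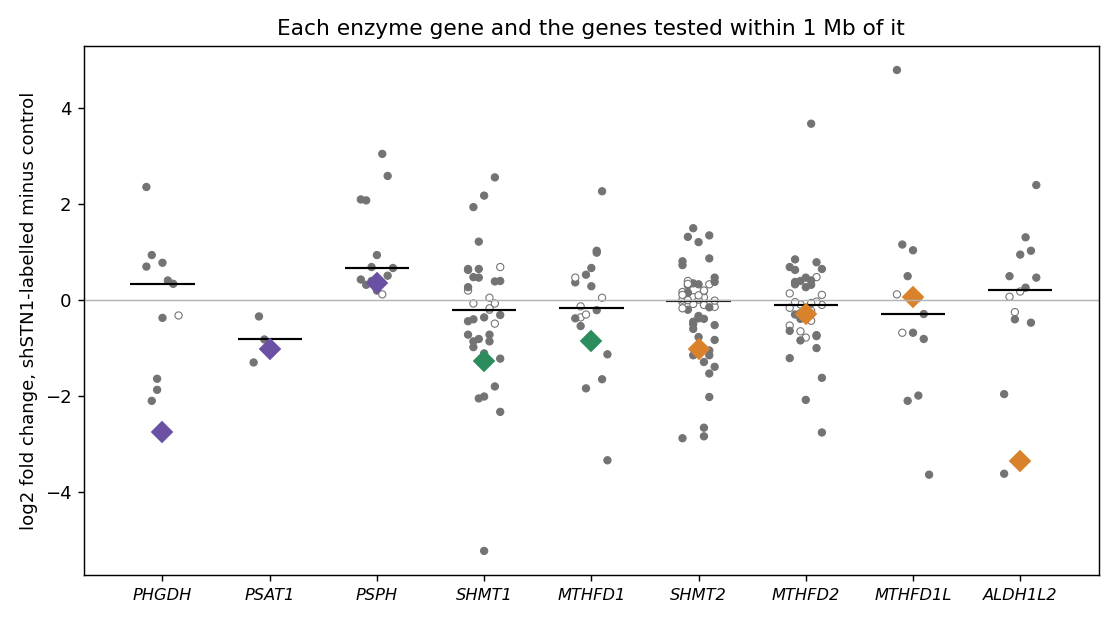
Log2 fold change (shSTN1-labelled minus control) of each enzyme gene (diamond) and of the genes tested within 1 Mb of it (circles, filled where the adjusted p is under 0.05), with a bar at the median of the neighbours. PHGDH at -2.75 lies below all its neighbours, of which 6 were called higher and 4 lower. Of all genes tested, 7.31% lie below PHGDH. PSPH at 0.36 lies among neighbours with a median of 0.67.

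The protein-coding gene on another chromosome closest in pattern was found for each called enzyme, by the root mean square difference of centred log2 CPM over the 6 libraries. With 2 groups, this likeness mainly reflects the size of the difference between them. It was SEPTIN3 for PHGDH (0.0659), ZNF689 for PSAT1 (0.0273), TRIB1 for PSPH (0.0191) and E2F2 for SHMT1 (0.0270). For the others it was COL6A1 for MTHFD1 (0.0249), THAP7 for SHMT2 (0.0276), CMSS1 for MTHFD2 (0.0192) and DPP4 for ALDH1L2 (0.139). PHGDH and ALDH1L2, with the widest falls, had the least close partners.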

How the data were processed

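RNA sequencing was measured in 6 libraries, 3 with each label, with total counts of 17357223 to 23336942 per library. The table the authors deposited holds raw read counts for each gene as whole numbers. Per the submitters' processing notes, reads were handled with STAR 2.7.2b, featureCounts 2.0.1, cutadapt and FastQC on GRCh38. For the annotation release, the strand setting and multi-mapping reads, the sources used here give nothing. The 60668 rows included 45 second copies of pseudoautosomal genes, which were left out. GENCODE 29 gave coordinates, exons and APPRIS principal transcripts for 58516 of the 60623 genes kept, by identifier. The 103 list entries were matched by symbol, 2 of them by gene ID.

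Counts were tested with edgeR 4.0.16 in R 4.3.3 (filterByExpr, TMM factors, robust quasi-likelihood fit over all 6 libraries without covariates), and Benjamini-Hochberg adjustment ran across all 17451 genes tested (threshold 0.05). CPM used TMM-scaled library sizes, and log2 CPM a prior count of 2. Intervals are from limma-voom (limma 3.58.1). Ratios were compared by exact permutation with scipy 1.17.1. The script was tested on simulated data. The members, lists, motifs and tests were chosen with earlier results of these data known. Named beyond the 9 enzymes and STN1 were the up to 4 members of each list with the smallest adjusted p (1 of them is not reported here), the gene closest in pattern to each called enzyme, and ADSS1, ASNS, SLC7A11, ALDH1L1, PAX2, SALL1, HMX1 and EYA4, named after their values were seen, as were overlapping genes and pseudogenes.

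Alternatives were RLE and upper-quartile factors, total counts only, no low-count filter, a filter of 1 CPM in 3 libraries, only protein-coding genes, DESeq2 1.42.0, limma-voom, the replicate number as a block, and leaving out each library. No pair of replicates looked like 1 library deposited again: their chi-square divided by its degrees of freedom was 3.02 to 8.89, above sampling noise. No column of values was left out. Figures were drawn with matplotlib 3.10.9.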

Additional observations from a re-analysis of the deposited data

How the results depend on the processing

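The count of 7 lower enzymes held under every alternative run, with 1 higher except with total counts as the only scaling, where 0 were higher, PSPH moved to 0.16 (adjusted p = 0.0611) and MTHFD1L to -0.13 (adjusted p = 0.0803), and STN1 passed at -0.35 (adjusted p = 0.00909). With that scaling the median log2 fold change of all genes was -0.22. Of 135 enzyme values recomputed, 133 kept their direction and call. Genes past the threshold numbered 12929, with alternatives between 10981 (when only protein-coding genes were kept) and 13901 (without a filter). With each library left out in turn, 12586 to 12857 genes passed, 5970 to 6160 higher and 6566 to 6697 lower, 7 lower and 1 higher enzymes each time, and an STN1 value of -0.22 to -0.06. The arm difference ran from -0.20 to 0.02 over left-out libraries, reversed to 0.02 without shSTN1 replicate 1, and was 0.66 without ALDH1L2, by its construction. The ratio differences ran over left-out libraries from 0.21 to 0.31 for SHMT2 over SHMT1, 0.52 to 0.63 for MTHFD2 over MTHFD1 and 0.88 to 0.98 for MTHFD1L over MTHFD1. With the replicate number as a block, 12742 genes and 8 enzymes passed, and no call of an enzyme changed. The correlations between deviations of same-numbered libraries were -0.0123, 0.0171 and -0.0337, and only 1 of the 3 shSTN1-labelled libraries correlated best with its own number, so they were not treated as pairs. Levels per kilobase changed order with the length used. ALDH1L2, with 110 reads over the shSTN1-labelled libraries, is limited by depth.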
